A study of Rattus norvegicus with 6 samples.

Results

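Star assays are RT-qPCR assays for the strand of a microRNA hairpin that is usually degraded, written with an asterisk in the older naming (miR-30a*). They were chosen here by name alone: an assay counted as a star assay when its name ended in an asterisk, except names beginning with miR-297, miR-466, miR-467 or miR-669, and its wells were averaged. They made up 21.4% of the 584 microRNA assays, the other 459 being no star assays. All star assays lay in the second of the 2 blocks of wells of each sample, called card B here, together with 84 of the others. The remaining microRNA assays were on card A.

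The RNA came from the left ventricle of 6 rat hearts. One group was 3 OLETF rats, a strain that becomes obese and develops type 2 diabetes, labelled as diabetic. The other was 3 LETO rats, the non-diabetic counterpart strain, labelled as healthy controls. All diabetic rats were OLETF and all controls LETO, so strain and diabetes cannot be told apart. The labels give no age and name neither litters nor days of sampling, so each p-value measures only the spread between these samples.

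A microRNA gene is transcribed as a hairpin, and cutting by Drosha and Dicer leaves a short duplex. An Argonaute protein usually keeps the strand whose 5′ end is less tightly paired, the guide, and prefers a U or A as its first base. The other strand, the star or passenger strand, is mostly lost, but some hairpins supply a functional strand from each arm, and the arm that is kept can differ between tissues. Bases 2 to 8 of the loaded strand, the seed, choose its target mRNAs, so the 2 strands of a hairpin have different targets.

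The sequences below, printed 5′ to 3′ with the seed in capitals, are rat mature sequences from RefSeq on GRCr8. The assay names carry mouse (mmu) or rat (rno) prefixes, so an assay target may differ from the rat sequence at its ends. The first set holds hairpins whose star strand was as abundant as the guide or more so in the measurements that follow.
miR-30a star (miR-30a-3p): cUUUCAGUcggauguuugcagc
miR-30a guide (miR-30a-5p): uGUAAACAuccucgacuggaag
miR-28 star (miR-28-3p): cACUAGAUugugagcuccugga
miR-28 guide (miR-28-5p): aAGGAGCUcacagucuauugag
miR-872 star (miR-872-3p): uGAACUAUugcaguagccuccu
miR-872 guide (miR-872-5p): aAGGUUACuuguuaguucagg
miR-7a star (miR-7a-1-3p): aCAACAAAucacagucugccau
miR-7a guide (miR-7a-5p): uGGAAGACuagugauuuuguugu
The second set holds hairpins whose star strand lay far below an abundant guide.
miR-29a star (miR-29a-5p): aCUGAUUUcuuuugguguucag
miR-29a guide (miR-29a-3p): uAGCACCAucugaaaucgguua
miR-378 star (miR-378a-5p): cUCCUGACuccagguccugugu
miR-378 guide (miR-378a-3p): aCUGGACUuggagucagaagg
miR-24-2 star (miR-24-2-5p): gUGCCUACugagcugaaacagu
miR-24 guide (miR-24-3p): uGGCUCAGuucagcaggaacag
The third set holds the pair of star strands that share a seed, and miR-21*, the assay that was measured in every LETO sample and in no OLETF sample.
miR-99a star (miR-99a-3p): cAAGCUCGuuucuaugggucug
miR-99b star (miR-99b-3p): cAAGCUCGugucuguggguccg
miR-21 star (miR-21-3p): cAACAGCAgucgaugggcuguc

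Which arm of a hairpin each star name stands for was assigned from general knowledge of the microRNAs, as the files do not give it, and the sequences, seeds and positions printed here rest on that. Among the 33 star assays looked up, 28 had a RefSeq mature sequence, giving 26 distinct star sequences. Of these 26, 3 began with U, 11 with A, 10 with C and 2 with G. Of the 29 distinct guide sequences of the same hairpins, 14 began with U. The star strand was the 3p arm in 18 cases and the 5p arm in 8. miR-99a-3p and miR-99b-3p had the seed AAGCUCG in common and differed by U10G, A14G and U21C, counted from the 5′ end with the miR-99a base first. These 2 were the only ones of the 26 with a common seed.

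The hairpins lie at separate places in the rat genome. miR-30a-3p is at chr9:33233987-33234008 on the plus strand. miR-28-3p is at chr11:89480263-89480284 on the minus strand, within the span of Lpp. miR-872-3p is at chr5:114654872-114654893 on the plus strand, within the span of Ift74, and miR-7a-1-3p is at chr17:6278751-6278772 on the plus strand, within the span of Hnrnpk. miR-29a-5p is at chr4:60618006-60618027 on the minus strand, and miR-24-2-5p at chr19:40859517-40859538 on the minus strand. miR-378a-5p is at chr18:57128962-57128983 on the minus strand, within the span of Ppargc1b, which encodes a coactivator of mitochondrial genes.

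The measured quantity was the threshold cycle (Ct), the PCR cycle at which a well crosses a fixed signal. A lower Ct means more RNA, and an assay counted as measured in a sample when the mean Ct of its determined wells was under 35. Levels are log2 values relative to U6 small nuclear RNA on the same card, the U6 Ct minus the assay Ct. A comparison of levels between assays includes any difference in their efficiency. The 7 heart muscle microRNA assays checked, for miR-1, miR-133a, miR-133b, miR-208, miR-208b and miR-499, were measured in all 6 samples. Assays checked for other tissues were mixed. Those for miR-124 of brain, miR-122 of liver and miR-375 of islets were measured in none. Those for miR-9 (brain), miR-192 (liver), and miR-200c and miR-203 (islet and epithelium) were measured in all 6. Of the rest of these lists, miR-128a (brain) was measured in 5 samples, miR-200a in 1 and miR-200b in 0. LETO replicate 3 stood apart. Its median Ct over the 40 microRNA assays of card B measured in all 6 samples was 27.7, against 28.6 to 30.7 in the other 5, with a U6 Ct of 17.96 against 16.07 to 17.86. On card A its median Ct was again the lowest, 26.5 against 27.96 to 30.0, while its U6 Ct of 17.89 lay within the range of the others, 17.46 to 19.2.

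Fewer than 1 in 4 star assays gave a signal in every heart. Of the star assays, 29 (23.2%) were measured in all 6 samples, 41 in 1 to 5 samples and 55 (44.0%) in none, of which 38 had no determined well in any sample. The star assays were thus measured in all samples more often than the other assays of card B, of which 11 of 84 (13.1%) were, and less often than those of card A, of which 122 (32.5%) were. These shares describe which assays the maker put on each card and were not tested. Star assays made up 72.5% of the 40 assays of card B measured in every sample.

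In LETO replicates 1 to 3, the star assays measured numbered 44, 39 and 63, and in OLETF replicates 1 to 3 they numbered 35, 36 and 45. LETO replicate 3 was the highest and the ranges of the groups overlapped, since OLETF replicate 3 exceeded LETO replicates 1 and 2. The LETO mean was 48.7 ± 12.7 and the OLETF mean 38.7 ± 5.51 (SD, n = 3 for both), a difference of -10.0 assays (exact two-sided permutation test, p = 0.3; the smallest p that 3 against 3 allows is 0.1). Without LETO replicate 3 the difference was -2.83. Of the 21 star assays measured in a single sample, 17 were measured in LETO replicate 3, among them those of miR-106b* and miR-18a*, from clusters linked to cell division, and miR-10b*, whose guide is a microRNA of the Hox clusters.

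**Figure D1:**
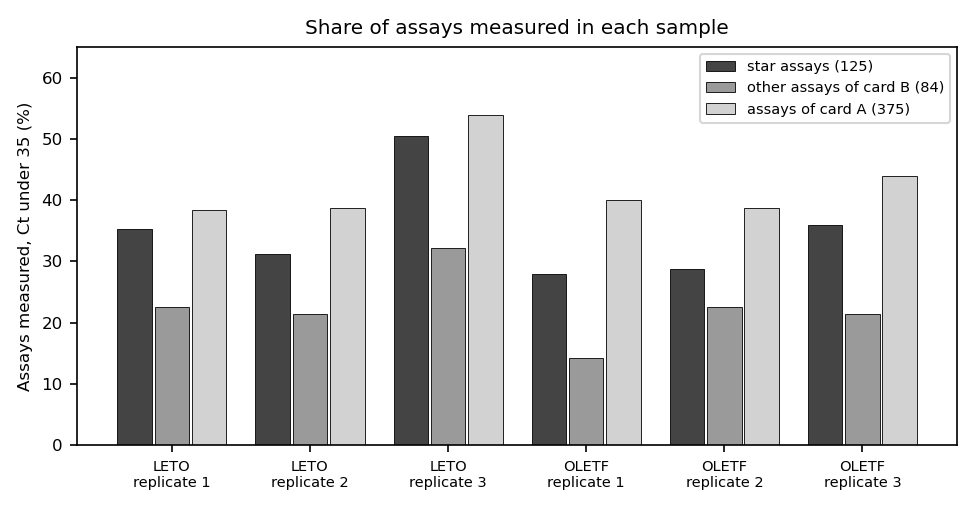
Share of star assays, of the other assays of card B and of the assays of card A with a mean Ct under 35, in percent, for each of the 6 samples. Star assays were measured at 28.0% to 36.0% in 5 samples and at 50.4% in LETO replicate 3, which was also the highest sample for the other 2 sets.

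Groups of star assays, sorted by their guide, differed in how many were measured. The miR-30 hairpins gave 3 of 6 star assays in all samples (miR-30a*, miR-30e* and miR-30d*), and those grouped under metabolism gave 5 of 9 (miR-378*, miR-34c*, miR-22*, miR-27a* and miR-33*). Of 7 star assays grouped under vessel wall, 4 were measured in all samples (both miR-125b* assays, miR-99a* and miR-99b*). In that group miR-145*, whose guide is a smooth muscle marker used here beside miR-143, was measured in no sample. There, miR-10a* was also measured in no sample, and miR-10b* in 1. The 8 let-7 star assays, whose guides are among the most widely expressed microRNAs, had 0 measured in all samples and 2 measured in none. Of the 16 star assays of the imprinted Dlk1-Dio3 cluster, active mainly in the embryo and brain, 11 were measured in none and 0 in all. Of 11 star assays of the miR-17 cluster and its paralogues, which drive proliferation, miR-93* alone was measured in all samples and 7 were measured in none. In the muscle group, rno-miR-1* was not measured in any sample and miR-133a* was measured in 4.

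The level of the star strand spanned a wide range, and both of the most abundant came from the miR-30 family. The 29 star assays measured in all samples had mean Ct values from 23.2 to 33.1, and 9 of them had a mean Ct above 32. Among the 162 assays measured in all samples, ranked by mean level, miR-30a* was 19th and miR-30e* 23rd, while the third most abundant star assay, mmu-miR-7a*, was 69th. mmu-miR-125b* was the lowest star assay at 161st. These ranks join the 2 cards, each relative to its own U6, and can shift with the reference. Among the 40 assays of card B alone, miR-30a* was 4th, miR-30e* 5th and mmu-miR-125b* 39th.

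miR-30 guides are abundant in the heart and repress, among others, factors of connective tissue growth. The level of miR-30a* was -5.50, -7.13 and -4.38 in LETO replicates 1 to 3 and -6.99, -6.96 and -5.00 in OLETF replicates 1 to 3, a mean of -5.99 ± 1.19 (SD, n = 6). That of miR-30e* was -5.91, -7.74 and -4.44 in LETO and -7.97, -7.77 and -5.53 in OLETF, a mean of -6.56 ± 1.47. In both, LETO replicate 3 was the highest sample and the groups overlapped. The third star assay of the family, rno-miR-30d*, was far lower, at -15.25 ± 2.20.

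miR-7a*, whose guide is known from pancreatic islets and brain, was measured by a mouse and a rat assay. mmu-miR-7a* had levels of -10.06, -12.15 and -8.02 in LETO and -12.06, -11.27 and -8.96 in OLETF. The mouse Ct minus the rat Ct was -0.25 ± 0.31 cycles (SD, n = 6), within the single-well SD of 0.502 cycles found from 95 pairs of measured wells of the same star assay. Mouse and rat assays of the same star name did not always give one level. For miR-28* the mouse Ct was 1.41 ± 0.46 cycles higher than the rat Ct, and for miR-125b* it was 3.94 ± 0.53 cycles higher, in the same direction in 6 of 6 samples. mmu-miR-135a* was measured in 6 samples and rno-miR-135a* in 0.

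Below miR-7a* and rno-miR-28*, the next star assays were close together. miR-24-2*, from the miR-23a, miR-27a and miR-24-2 cluster, had a mean level of -11.00 ± 2.15. miR-322*, whose guide shares its seed family with miR-15 and miR-16, had -11.14 ± 1.91. rno-miR-125b* had -11.89 ± 1.53, and mmu-miR-28* had -11.95 ± 1.86. The mean levels of miR-872* (-11.99 ± 1.73), miR-93* (-12.10 ± 1.76) and miR-877* (-12.24 ± 1.52) followed. Neighbours in this order differed by less than the SD of each over the 6 samples. That SD includes the shift that the assays of a sample share, so it does not test the order.

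The rest of the 25 most abundant star assays included several whose guides are known in heart or metabolism. miR-378*, from the hairpin within Ppargc1b, had a mean level of -13.00 ± 2.97, and miR-34c*, whose guide is induced by p53, had -13.17 ± 1.21. miR-22* (-14.23 ± 2.14), whose guide is abundant in heart muscle, and miR-27a* (-14.32 ± 2.03) lay next to miR-214* (-14.54 ± 2.41), whose guide is known from fibroblasts and stressed heart muscle. miR-33*, from the hairpin within Srebf2, a gene of cholesterol synthesis, had -15.01 ± 1.88. The other members of that list were miR-99b* (-13.59), miR-674* (-13.85), miR-99a* (-14.75), miR-455* (-14.91), miR-9* (-15.07), miR-425* (-15.08) and miR-30d*.

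**Figure D2:**
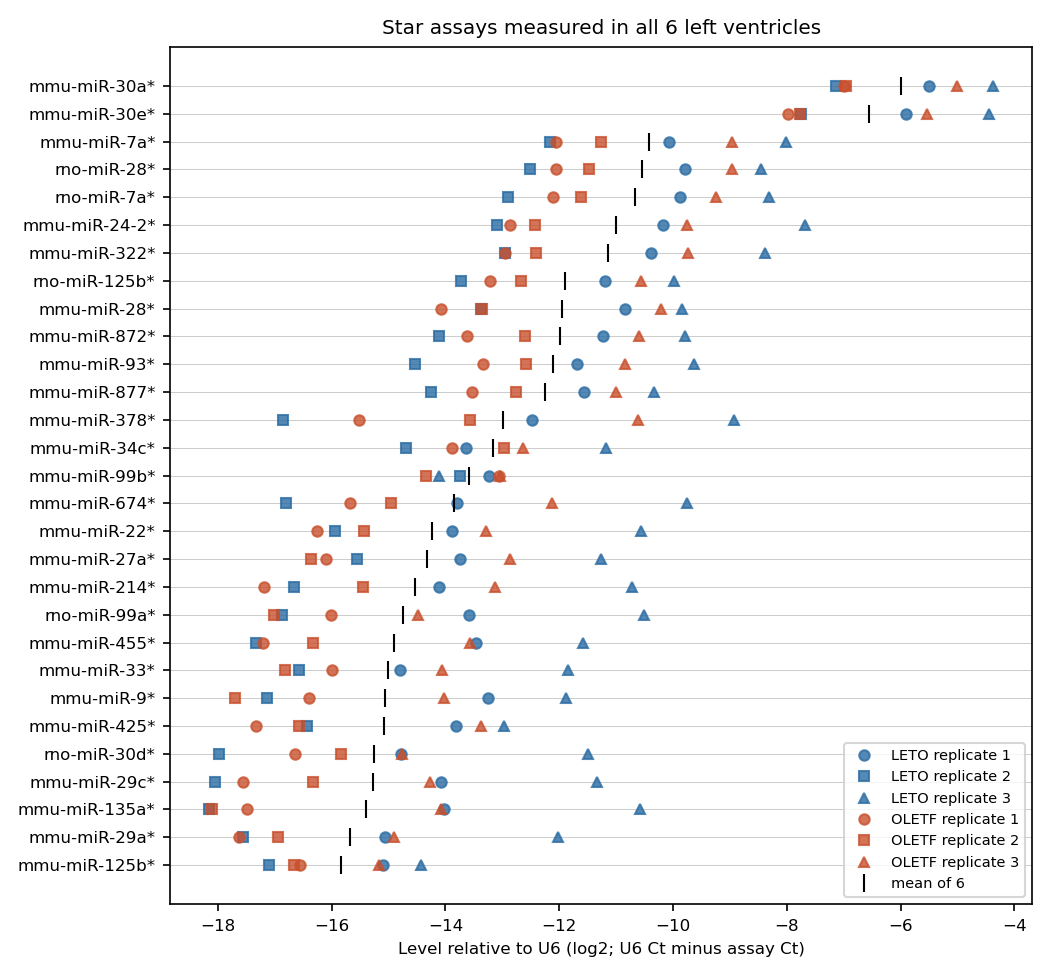
Level of each of the 29 star assays measured in all 6 samples, relative to U6 on a log2 scale, by sample (blue LETO, orange OLETF; circle, square and triangle for replicates 1, 2 and 3; black bar, mean of 6). miR-30a* and miR-30e* stand to the right of the others, and LETO replicate 3 is the rightmost point for all but miR-99b*.

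In 28 of these 29 assays, LETO replicate 3 had the lowest Ct. The highest Ct was in OLETF replicate 1 in 17 of them and in other samples in the rest. The exception was miR-99b*, with a Ct of 31.0, 29.8 and 32.1 in LETO replicates 1 to 3 and 30.0, 31.2 and 30.9 in OLETF, so that LETO replicate 3 had the highest Ct. Its SD of the level, 0.56, was the smallest of the 29, and the largest was 3.04, for mmu-miR-135a*. miR-99a*, with the same seed as miR-99b*, followed the other assays, at 31.3, 32.9 and 28.5 in LETO and 33.0, 33.9 and 32.3 in OLETF.

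In most of the 20 pairs measured in full, the star strand was below its guide, but in 5 it was not. These 5 include the miR-28 hairpin by both its mouse and its rat assay, against the same guide assay. A guide assay was found for 117 star assays (93.6%), 110 of them on card A and 7 on card B. In 20 pairs both strands were measured in all 6 samples, and the median log2 star-to-guide ratio of these pairs was -2.07. Left out were 51 pairs with the guide measured in all samples and the star strand in fewer, and 6 the other way round. The median and the counts that follow therefore hold only for pairs whose star strand was abundant enough to be measured throughout. The mean ratio was above 0 in 5 pairs, in 3 of them in every sample, and 14 pairs had the star below the guide in every sample. The count of 5 did not change with raw Ct values in place of U6-relative levels and was 8 with each strand relative to the median of its own card. The 17 ratios across cards rose together with another reference: that of miR-30a went from 0.72 relative to U6 to 1.54 with raw Ct and 2.29 with card medians, and that of miR-30e from -1.57 to -0.75 and 0.0069. A ratio across assays also depends on their efficiencies.

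The highest ratio was that of miR-877*, with both strands on card B. miR-877 comes from a mirtron, a short intron of Abcf1 that is processed without Drosha, and its guide was near the limit of measurement, with a Ct of 32.2 to 34.6. The log2 ratio was 4.17, 3.49 and 3.88 in LETO and 4.14, 3.72 and 4.89 in OLETF, a mean of 4.05 ± 0.49 (SD, n = 6), or 16.6-fold more signal for the star strand. The star strand was higher in 6 of 6 samples.

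The miR-28 hairpin gave more signal from the strand named as the star. By the rat assay the log2 ratio was 1.74, 1.76 and 1.26 in LETO and 0.87, 1.92 and 2.01 in OLETF, a mean of 1.59 ± 0.44, or 3.02-fold. By the mouse assay for the star strand, against the same guide assay, it was 0.19 ± 0.78 and above 0 in 4 of 6 samples. Relative to U6, the star strand therefore exceeded the guide in every sample by the rat assay and not by the mouse assay. With card medians the means were 3.17 and 1.76, above 0 in 6 of 6 samples by both assays.

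The miR-30a ratio was 1.30, 1.12 and 0.14 in LETO and 0.50, 0.49 and 0.75 in OLETF, a mean of 0.72 ± 0.43, or 1.64-fold, with the star strand higher in 6 of 6 samples. Its relative miR-30e had a ratio of -1.57 ± 0.52, and that of miR-30d was -6.85 ± 0.99, so these star strands of one seed family of guides ranged from above the guide to 116-fold below it. The miR-872 ratio was 2.35, -0.34 and 0.68 in LETO and 0.40, 0.60 and 0.88 in OLETF, above 0 in 5 of 6 samples, with a mean of 0.76 ± 0.89. miR-99b* (-1.44 ± 1.45) and miR-93* (-1.53 ± 0.47) came next.

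At the other end stood abundant guides with a scarce star strand. miR-29a, whose guide represses collagen mRNAs, had a ratio of -10.79, -11.93 and -10.96 in LETO and -12.91, -12.45 and -11.80 in OLETF, a mean of -11.81 ± 0.82, or a guide 3586-fold above the star strand. Its mean ratio was -10.99 with raw Ct and -10.24 with card medians. The ratio of miR-378, both of whose strands were on card B, was -8.58 ± 1.11, or 383-fold in favour of the guide. For miR-24-2* against the miR-24 guide, which is made from 2 hairpins, it was -7.89 ± 1.15, or 237-fold.

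Relative to U6, 0 of the 20 ratios separated the groups. Over the 20 pairs, the exact two-sided permutation test of the OLETF against LETO ratio gave p from 0.2 to 1.0, and 0.824 for the smallest after Benjamini-Hochberg adjustment. The 2 pairs at 0.2 were miR-29a and miR-99a, both with a lower mean ratio in OLETF (-12.39 against -11.23 for miR-29a, and -5.69 against -4.36 for miR-99a). With card medians the ratios of miR-29a* and miR-24-2* were lower in all OLETF samples than in any LETO sample, and with raw Ct also those of miR-214* and miR-99a*, each at the smallest exact permutation p possible, 0.1. That was 2 of 20 pairs with card medians and 4 of 20 with raw Ct, named after their values were seen. At that p, some of 20 pairs would separate without any group difference, so these pairs were not read as results. Relative to U6 the ratio was lower in OLETF in 14 of 20 pairs, with a median difference of -0.52, while with card medians it was lower in 10 of 20, with a median of 0.04. In the 3 pairs with both strands on card B (miR-877, miR-22 and miR-378), which need no reference, the mean ratio was higher in OLETF, with a median difference of 0.41 and a smallest exact permutation p of 0.5.

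**Figure D3:**
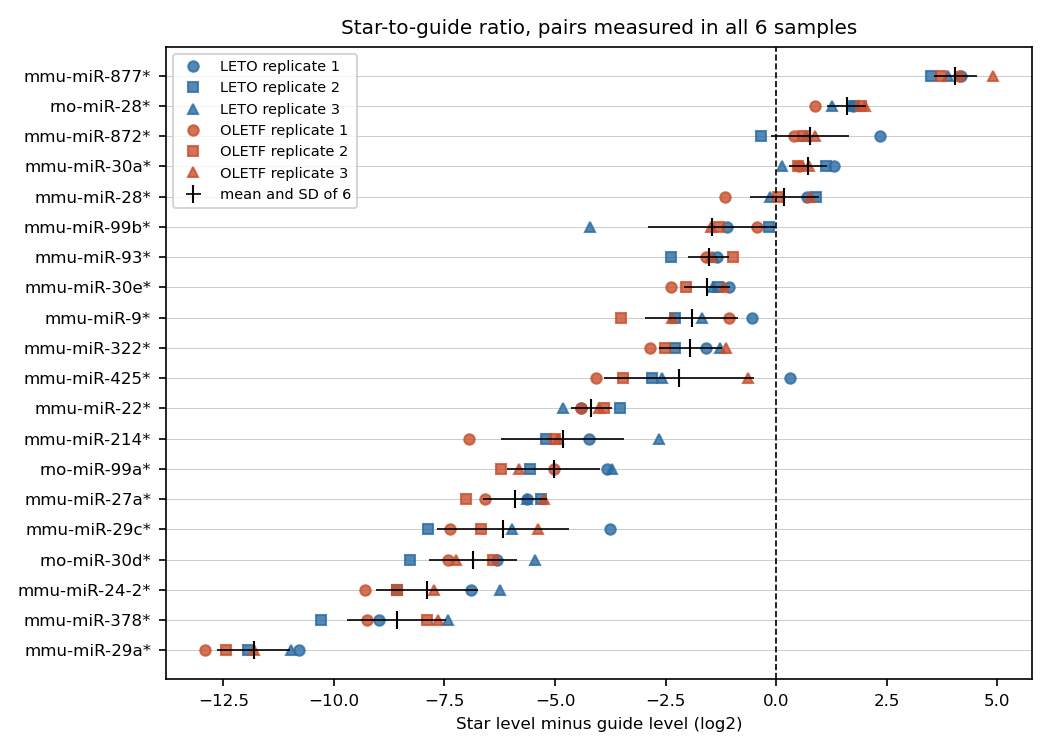
Star level minus guide level (log2) for the 20 pairs measured in all 6 samples, by sample (blue LETO, orange OLETF; symbols for replicates), with the mean and SD of 6 in black. The dashed line at 0 marks equal signal: miR-877* lies at 4.05, 4 further pairs, among them both miR-28* assays, have a mean above the line, and miR-29a* lies at -11.81.

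In 6 star assays the star strand was measured in all samples while its guide was measured in fewer. These were both miR-7a* assays, miR-34c*, miR-135a*, miR-674* and miR-455*. The miR-7a guide had a Ct under 35 in LETO replicate 3 (33.1) and OLETF replicate 3 (33.7), with no determined well in the other 4 samples, although mmu-miR-7a* had a Ct of 25.98 to 29.02. The guide of miR-455, a microRNA of cartilage from the Col27a1 gene, was not measured in any sample, while miR-455* had a Ct of 29.5 to 34.2. The names on these cards are those of the maker's design, and which strand is called the star was fixed there.

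The reverse, a guide measured in all samples and a star strand in fewer, was found in 51 of 117 pairs. In 22 of these the star strand was measured in none. They included miR-150 (mean guide level -3.38), known from lymphocytes, rno-miR-1 (-4.48), the most typical microRNA of heart muscle, miR-30c against miR-30c-2* (-4.23), miR-30b (-4.93) and miR-145 (-5.46) of smooth muscle. The miR-24 guide, at -3.11, was above rno-miR-24-1* and mmu-miR-24-1*, measured in 0 and 2 samples, while miR-24-2* was measured in all 6. Those 2 hairpins give the same guide, so the guide level cannot be divided between them.

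No star assay differed between OLETF and LETO rats beyond the spread between samples. Of 37 star assays measured in at least 2 samples of each group, 0 had an adjusted p under 0.05 relative to U6 (limma with Benjamini-Hochberg adjustment over all assays tested, these 37 and 156 others; smallest adjusted p among star assays 0.997), as did 0.0% of all assays tested. At an unadjusted p under 0.05 there were 0 star assays, against 1.04% of all assays. Without LETO replicate 2 there were 13 of 35 (smallest adjusted p 0.055 by limma), against 11.4% of all assays. There were 8 of 37 with replicate 3 as a batch block, against 8.29%, and 5 of 35 with the replicate block, against 4.76%. The median SE of a star difference was 1.38 on the log2 scale. Relative to U6, limma gave the same SE to star assays measured in equally many samples. It was 1.38 with 6 samples, 1.54 with 5 and 1.69 with 4. These SEs reflect a spread shared over assays and not the precision of a single assay. Array weights were 0.322 and 0.241 for LETO replicates 2 and 3, 0.357 for OLETF replicate 3, and 3.06 to 3.69 for the others. With them, 14 of the 37 had an adjusted p under 0.05 by limma, all lower in OLETF. Over all assays tested, these 14 among them, the share was 15.5%, counted in either direction.

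Relative to U6, 32 of the 37 were lower in OLETF by their estimate and 5 higher, with a median difference of -1.06. Over all assays tested the median was -0.60, and over the 16 other assays of card B it was -1.35. The median over star assays was 0.02 without LETO replicate 3, -2.27 without LETO replicate 2, -1.87 without OLETF replicate 3, -0.47 without OLETF replicate 1 and -0.67 without OLETF replicate 2.

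Relative to the median of the 40 card B assays measured in all samples, which removes what all assays of a sample share, 22 star assays were lower and 15 higher, with a median of -0.26. Because 29 of those 40 assays are star assays, this reference by itself holds the split of the star assays near even and their median near 0. Over all assays tested, each relative to its own card, it was -0.31. Again 0 star assays had an adjusted p under 0.05 by limma (smallest 0.632), as did 0.0% of all assays. At an unadjusted p under 0.05 there was 1 star assay, miR-181a-1* (-1.22 ± 0.51, SE; named after its values were seen), against 6.22% of all assays. For miR-181a-1*, 7 of 12 wells were determined and OLETF replicate 1 had none. The Ct was 31.5 to 34.7 in the 5 samples measured, near the limit of 35 in most. Relative to the median of both cards together, 35 star assays were lower and 2 higher, with a median of -0.87, and 7 had an unadjusted p under 0.05, against 8.81% of all assays. With that reference 93.75% of the other tested assays of card B were lower (median -1.10), and 50.0% of those of card A (median -0.00011). The lower values were therefore not particular to the star assays of card B. Relative to the other small RNA controls of the cards, 11 were lower and 26 higher, with a median of 0.44, so 29.7% were lower, beside 24.9% of all assays tested (median 0.37).

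Among single assays, the lowest differences relative to U6 were in miR-135a*, miR-99a*, miR-9* and miR-133a*. The level of miR-135a* was -14.03, -18.15 and -10.58 in LETO and -17.50, -18.10 and -14.07 in OLETF. The difference was -2.30 ± 1.38 (SE) relative to U6 and -1.54 ± 0.78 relative to the card median. The SE relative to U6, here and below, is the one shared over assays. The SD of miR-135a* itself was 3.79 in LETO and 2.17 in OLETF. LETO replicate 3 was the highest sample and LETO replicate 2 the lowest, so the groups overlapped.

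miR-99a*, from a hairpin whose guide restrains mTOR, had levels of -13.59, -16.87 and -10.51 in LETO and -16.02, -17.01 and -14.48 in OLETF. Its difference was -2.18 ± 1.38 relative to U6 and -1.42 ± 0.63 relative to the card median. miR-9*, from a neural microRNA, had -13.25, -17.14 and -11.88 in LETO and -16.41, -17.69 and -14.03 in OLETF, with differences of -1.95 ± 1.38 and -1.19 ± 0.55. In each, LETO replicate 2 lay among the OLETF samples. The muscle assay miR-133a*, measured in 2 samples of each group, had a difference of -1.92 ± 1.69 relative to U6 and -0.26 ± 0.69 relative to the card median.

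The highest differences were small. miR-29b*, measured in 2 samples of each group (not in LETO replicate 3, with a Ct of 35.05, nor in OLETF replicate 2), had 0.35 ± 1.69 relative to U6 and -0.20 ± 0.75 relative to the card median. miR-99b* had 0.22 ± 1.38 and 0.98 ± 1.17, and without LETO replicate 3, its lowest sample relative to the card median, the card-median value was -0.23. miR-503*, from the cluster that also holds miR-322, had 0.04 ± 1.54 and 0.50 ± 0.83, and miR-31* had 0.02 ± 1.54 and 0.19 ± 0.63. The abundant miR-30a* had -0.65 ± 1.38 and 0.12 ± 0.51, and miR-30e* had -1.06 ± 1.38 and -0.30 ± 0.42.

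**Figure D4:**
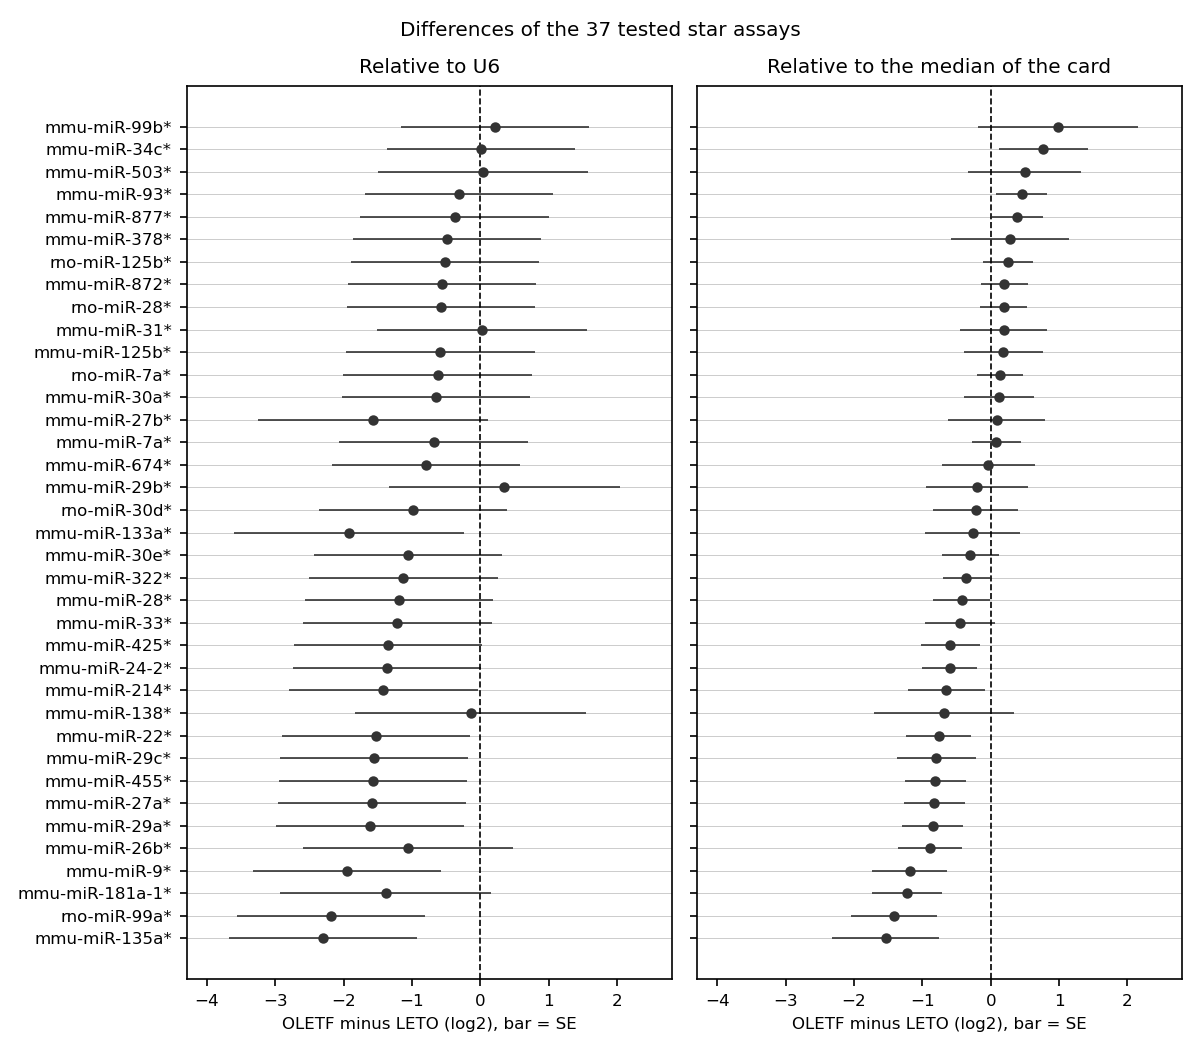
OLETF minus LETO difference (log2) of the 37 tested star assays with its SE, relative to U6 on the left and to the median of card B on the right, in the order of the right panel. Most points lie left of 0 relative to U6 (32 of 37), fewer relative to the card median (22 of 37), and the bars are shorter on the right. The bars on the left show an SE shared over assays, not the spread of each assay.

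Relative to U6, the groups overlapped in all 29 star assays measured in every sample, as in all 162 assays (0.0% separated in either direction). Relative to the card median, 3 star assays were lower in all OLETF samples than in any LETO sample, beside 9.26% of the 162 assays, and 1 was higher, beside 4.32%. They are named here after their values were seen, and each has the smallest exact p possible, 0.1.

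The level of miR-24-2* relative to the card median was 1.23, 1.09 and 2.10 in LETO and 0.89, 0.73 and 0.99 in OLETF (difference -0.60 ± 0.40, SE). That of miR-322* was 1.01, 1.22 and 1.39 in LETO and 0.79, 0.75 and 1.00 in OLETF (-0.36 ± 0.34). In both, the gap between the nearest LETO and OLETF samples was smaller than the single-well SD of 0.502 cycles. rno-miR-28* was 1.61, 1.67 and 1.32 in LETO and 1.70, 1.69 and 1.78 in OLETF (0.19 ± 0.34), again with a gap below that SD.

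The star strand of miR-29a, the anti-fibrotic microRNA, had a level relative to the card median of -3.65, -3.37 and -2.25 in LETO and -3.89, -3.78 and -4.17 in OLETF (-0.85 ± 0.45, adjusted p = 0.632 by limma). Relative to U6 it was -15.06, -17.55 and -12.03 in LETO and -17.64, -16.94 and -14.91 in OLETF, with a difference of -1.62 ± 1.38. The OLETF samples were all lower on the first scale, with a gap of 0.12 to the nearest LETO sample, below the single-well SD of 0.502 cycles, and overlapped the LETO samples on the second.

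miR-21*, the star strand of a microRNA that rises in heart fibrosis, was measured in 3 of 3 LETO samples and had no determined well in the 3 OLETF samples. Its Ct in LETO was 34.8, 34.8 and 34.5, just under the limit of 35, from 2, 1 and 1 determined wells of 2. Of the 12 miR-21* wells in all, 4 were determined. It could not be tested, and a Ct this close to the limit gives no fold difference. No other star assay was measured in all samples of one group and none of the other.

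By guide group, 0 star assays had an adjusted p under 0.05 in any group under either reference. The 3 tested neural star assays (miR-9*, miR-135a* and miR-138*) were lower by their estimates under both references, with medians of -1.95 relative to U6 and -1.19 relative to the card median. Of the 3 tested miR-29 star assays, 2 were lower and miR-29b*, measured in 2 samples of each group, was higher relative to U6 (median -1.56). All 3 were lower relative to the card median (median -0.80). Of the 7 tested metabolic star assays, 6 were lower relative to U6 (median -1.21) and 4 relative to the card median (median -0.45). The 4 tested star assays of the vessel wall group were those of miR-125b*, miR-99a* and miR-99b*, without miR-145*. Of these 4, 3 were lower relative to U6 (median -0.55) and 1 relative to the card median (median 0.22). The let-7 and Dlk1-Dio3 groups had 0 assays measured often enough to be tested.

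In the authors' deposited table of OLETF over LETO ratios, 79 star wells (40.7%) had a ratio of 0.5 or less, beside 28.1% of all microRNA wells and 35.2% of the other microRNA wells of card B. In the authors' deposited table, 3 star wells had a ratio of 2 or more, beside 4.36% of all microRNA wells. In the authors' deposited table, 49 of those 79 wells and all 3 of the others had at least 1 sample with an undetermined well. The ratios were matched when such a well entered as a Ct of 40, except in replicate 3 of each group. There it took the Ct of the other well of its assay where that well was determined.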

How the data were processed

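MicroRNAs of 6 rat left ventricles were measured on TaqMan rodent cards in a 7900HT instrument with U6 as endogenous control, per the labels' protocols; baseline and threshold settings are not given in the sources used here. The deposited Ct table held 768 wells per sample. The deposited log2 values were delta Ct, with a sign opposite to expression. Subtracting the averaged U6 Ct of a card (4 wells) from each assay Ct recomputed them, with 40 for an undetermined assay (largest difference 3.75e-06 over 4560 values). The deposited ratio (fold) of every star well was matched within 0.001 on the log2 scale when wells of replicate 3 of each group were averaged and others taken singly, which was added as a batch.

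Determined wells of an assay were averaged. Assays measured in at least 2 samples of each group were tested with limma 3.58.1 in R 4.3.3 (lmFit, eBayes, two-sided), with Benjamini-Hochberg adjustment over all assays tested and a threshold of 0.05. The fit was run on simulated data with large known differences and independent noise, which checks the code and not its power on these data. Other steps used Python 3.11.15 and pandas 2.3.3. Single values were compared with exact permutation tests. Members, lists and groups were chosen with earlier results of these data known. Named assays were the 25 of highest level, the 4 highest and 4 lowest differences, those in 1 group alone, the 8 highest and 4 lowest star-to-guide ratios, miR-21*, miR-29a*, and assays separated under both references. With only 6 samples and no dilution series, precision rests on 3 samples a group. Other references, Ct limits, blocks, weights and left-out samples were tried as alternatives. Same-numbered samples of the groups had correlations of -0.088, 0.23 and 0.62 in their deviations over 162 assays, so numbers were not taken as pairs.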

Additional observations from a re-analysis of the deposited data

How the results depend on the processing

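The count of 0 star assays with an adjusted p under 0.05 (limma) was the same under 22 alternatives, 6 of them the per-card median with each sample left out (added after seeing the data), and was 14 with array weights, with the smallest adjusted p over all alternatives from 3.57e-05 to 0.99997. In the paired fit, with a replicate block, it was 0 of 35, with the smallest adjusted p at 0.383. With array weights miR-135a* (-3.47), miR-9* (-3.44), miR-99a* (-2.78), miR-24-2* (-2.22), miR-29a* (-2.07) and miR-322* (-2.04) passed the threshold, and miR-29b* (-0.78), miR-99b* (-0.38), miR-503* (-0.31) and miR-31* (-0.044) changed sign. The cause was not tested. Assays measured in all 6 samples fell from 29 to 13 with a Ct limit of 32, as a stricter limit must give. Pairs with the star above the guide numbered 3 of 7 with that limit and 8 of 20 with per-card medians. Separated star assays numbered 0 relative to U6, 4 with the per-card median, 5 with the whole-array median (all lower in OLETF) and 4 with the other small RNA controls (all higher). The share of all assays that separated was not worked out for the whole-array median and the other controls, so those counts cannot be read as particular to star assays. With the whole-array median 93.75% of the other tested assays of card B were lower, and with the other controls 24.9% of all tested assays. The median difference was 0.44 with the other controls, -0.87 with the whole-array median, and -2.27 to 0.02 with each sample left out. The remaining leave-one-out ranges were 0 to 0 for calls, 29 to 32 for assays in all samples, -14.8 to -2.83 for the detection difference, and 5 to 5 for star above guide.

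Signs that changed were all of uncalled differences. With the other small RNA controls the values were 0.65 (miR-133a*), 0.85 (miR-30a*), 0.44 (miR-30e*), 0.14 (miR-24-2*), 0.38 (miR-322*) and 0.93 (rno-miR-28*). With the per-card median they were -0.20 (miR-29b*), 0.12 (miR-30a*) and 0.19 (rno-miR-28*). For miR-29b*, miR-503* and miR-31*, in this order, they were -1.15, -0.045 and -0.055 under a whole-array median, -1.78, -1.08 and -1.70 in the deposited normalized table, and -0.49, -0.20 and -0.48 with replicate 3 as a batch block. For miR-503* and miR-31* they were -1.08 and -1.70 with a Ct limit of 38 or none, and -0.45 and -0.33 with the replicate block. With each sample left out, the ranges were -0.45 to 0.60 (miR-503*), -0.99 to 1.39 (miR-31*), -0.0040 to 0.65 (miR-99b*), -1.70 to 0.32 (rno-miR-28*), -1.38 to -0.0026 (miR-30a*), -1.92 to -0.27 (miR-30e*) and 0.35 to 0.35 (miR-29b*) relative to U6. Relative to the per-card median they were 0.05 to 1.20 (miR-503*), -0.36 to 0.56 (miR-31*), -0.23 to 2.16 (miR-99b*), -0.24 to 0.59 (miR-30a*, with 0.0082, 0.13 and 0.36 between), -0.51 to 0.046 (miR-30e*) and -0.20 to -0.20 (miR-29b*), and 0.083, 0.16, 0.20, 0.21, 0.23 and 0.26 for rno-miR-28*. Depth here is signal over the Ct limit: 9 of the 29 star assays had a mean Ct above 32.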
